A study of Mus musculus with 16 samples.

Results

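Guanylate-binding proteins (GBPs) are large GTPases of the dynamin superfamily that cells make in response to interferons. They gather on the membranes of vacuoles that hold parasites or bacteria and on the surface of bacteria in the cytosol. There they recruit further GTPases and expose lipopolysaccharide (LPS) to caspase-11, the cytosolic LPS sensor of the mouse, encoded by Casp4. In the brain, Gbp2 is also used as a marker of one reactive state of astrocytes. The 10 genes described here, Gbp2 to Gbp11, were chosen by name, with earlier results of these data known. All 10 were found among the 55487 gene identifiers of the deposited table.

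RNA was measured in whole cerebral cortex of 16 male wild-type C57Bl6 mice (C57BL/6J in the study's methods) aged 2 months. Each mouse received an intraperitoneal injection of LPS, a component of the bacterial outer membrane, at 2 mg/kg, or of phosphate-buffered saline (PBS) as control, at the same time of day (TOD) on 2 consecutive days, and tissue was taken on day 3. Injections were given at zeitgeber time (ZT) 1, early in the light phase, or at ZT13, early in the dark phase, which gave 4 groups: ZT1 PBS with 3 mice, ZT1 LPS with 5, ZT13 PBS with 3 and ZT13 LPS with 5. According to the study, cortex for RNA was taken a full day after the second injection, so harvest also fell at the TOD of the injections. Time of injection and time of harvest can therefore not be told apart in any comparison between ZT1 and ZT13. All mice shared the injection procedure, strain, sex and age, so a mouse that was not injected is not part of the comparison. The treatment field of the labels disagreed with the sample title in 12 of the 16 samples, and groups were taken from the titles.

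Values are reads on a gene per 1000000 reads on all genes (CPM), in libraries of 20251840 to 29112758 reads on genes. Transcripts of neurons were present in every sample, with a summed level of 8 neuronal markers between 3171 and 3637 CPM. Of these, limma called Neurod6 lower in LPS at ZT1 and Snap25, Neurod6 and Slc17a7 lower at ZT13, and the sums overlapped at ZT1 but not at ZT13 (3451 to 3637 CPM in PBS and 3190 to 3344 CPM in LPS mice). Markers of other cell types also moved with LPS. Over all genes tested, limma called 11.1% higher and 5.15% lower in LPS at ZT1, and 19.2% and 9.40% at ZT13. The 8 astrocyte markers, of which limma called 5 higher at each time and Slc1a2 lower at ZT13, summed to 5170 to 5354 CPM in PBS and 5674 to 6203 CPM in LPS mice at ZT1, and to 5237 to 5623 and 5965 to 6516 CPM at ZT13. Of 8 microglial markers, 6 were called higher and 2, P2ry12 and Siglech, lower at each time, and their sum overlapped between PBS (203 to 223 CPM) and LPS (218 to 354 CPM) at ZT1 but not at ZT13 (200 to 215 and 258 to 306 CPM). Of 8 endothelial markers, 6 were called higher and 1, Flt1, lower at ZT1, and 7 higher at ZT13. They summed to 162 to 164 CPM in PBS and 221 to 278 CPM in LPS mice at ZT1. At ZT13 the sums were 118 to 140 and 272 to 290 CPM. Endothelial markers also differed by time in PBS mice, where Flt1 and Cldn5 were called lower at ZT13 than at ZT1, against 0.217% of all genes tested. In the interaction of TOD and treatment, 4 of them, Pecam1, Flt1, Cdh5 and Cldn5, were called higher, against 0.122% of all genes tested. Blood cell transcripts were scarce in PBS mice, with Ly6g at 0 in all 6 and a sum of 8 neutrophil markers of at most 1.08 CPM, against 9.52 to 46.5 CPM in ZT1 LPS and 32.4 to 85.9 CPM in ZT13 LPS mice. The 8 monocyte and macrophage markers summed to 8.05 to 11.3 CPM in PBS, 17.2 to 66.3 CPM in ZT1 LPS and 45.1 to 80.8 CPM in ZT13 LPS mice, and 8 T and NK cell markers to no more than 4.09 CPM in any mouse. The part of these shifts in the results below was not tested, and in bulk tissue a change in the number of cells of a type and a change in RNA per cell cannot be told apart.

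The family lies in a pair of clusters on the mouse genome, build GRCm38. On chromosome 3, plus strand, stand Gbp5 (142493978 to 142522344), Gbp7 (142530342 to 142550149), Gbp3 (142560026 to 142573209) and Gbp2 (142620602 to 142638008). On chromosome 5, minus strand, stand Gbp8 (105014150 to 105139540), Gbp9 (105077630 to 105139539), Gbp4 (105115767 to 105139586), Gbp10 (105215699 to 105239533), Gbp6 (105270702 to 105293698) and Gbp11 (105323042 to 105346472). All are annotated as protein coding in GENCODE M21 except Gbp11, a polymorphic pseudogene. Gbp4, Gbp8 and Gbp9 overlap on the same strand but share no more than 61 exonic bases.

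Interferons act on their target genes through transcription factors of the STAT and interferon regulatory factor families, which bind the interferon-stimulated response element (ISRE) and the gamma-activated site (GAS). RefSeq promoter sequence on GRCm38.p6, from 250 bases before to 50 bases after a transcription start, was at hand for the 4 chromosome 3 members and for their neighbour Gbp2b. The following stretches of 70 bases are shown because each of these 5 genes has in its window the core of the ISRE, spelled GAAANNGAAA and searched on both strands. The match is in capitals, on the strand opposite to the gene in each case, and Gbp3 holds a pair of overlapping matches that are capitalised as one.
Gbp5, chr3:142496739-142496808, plus strand: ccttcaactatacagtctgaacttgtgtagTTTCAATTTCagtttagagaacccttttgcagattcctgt
Gbp7, chr3:142530253-142530322, plus strand: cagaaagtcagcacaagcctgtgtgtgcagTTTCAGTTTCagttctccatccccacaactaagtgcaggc
Gbp3, chr3:142559975-142560044, plus strand: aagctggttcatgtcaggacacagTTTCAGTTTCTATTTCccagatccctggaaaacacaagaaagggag
Gbp2b, chr3:142594680-142594749, plus strand: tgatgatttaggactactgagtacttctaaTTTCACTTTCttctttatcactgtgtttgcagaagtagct
Gbp2, chr3:142620574-142620643, plus strand: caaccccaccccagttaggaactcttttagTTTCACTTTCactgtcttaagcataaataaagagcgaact

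The core began and ended 59 and 50 bases upstream of the start in Gbp2, 53 and 44 in Gbp7, 39 and 30 for the nearer match of Gbp3, 165 and 156 in Gbp5 and 137 and 128 in Gbp2b. The start is that of the RefSeq window, which can differ from the GENCODE positions above. In Gbp2 and Gbp5 the match lies within the gene span given there. A second annotated start of Gbp3 had no match in its window. Of 32851 promoter windows of the same length in the table, 3.44% held this core. The GAS core, spelled TTCNNNGAA, reads the same on both strands and was found at 2 places each in the windows of Gbp5 and Gbp7 and in none of the other windows of these genes, against 8.30% of all windows. These are matches of letters and not measured binding sites.

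The reads that define a member differed in how well they could be placed. Of all stretches of 75 bases in the annotated transcripts of a gene, 0.578% in Gbp5 and 0.955% in Gbp2 were also found in transcripts of another gene, but 67.3% in Gbp6 and 77.8% in Gbp10. Most of the shared stretches of Gbp6 and Gbp10 were shared with Gm43302, a gene model at 105214907 to 105293695 on chromosome 5 that runs over both genes. Gm43302 was listed at 0 CPM in some mice of every group and at up to 4.99 CPM in the others, so Gbp6 and Gbp10 are reported as uncertain as single genes and were also summed with it. Shared stretches made up 11.3% in Gbp7, 10.3% in Gbp11, 8.04% in Gbp8 and between 2.06% and 3.61% in Gbp3, Gbp4 and Gbp9.

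**Figure D1:**
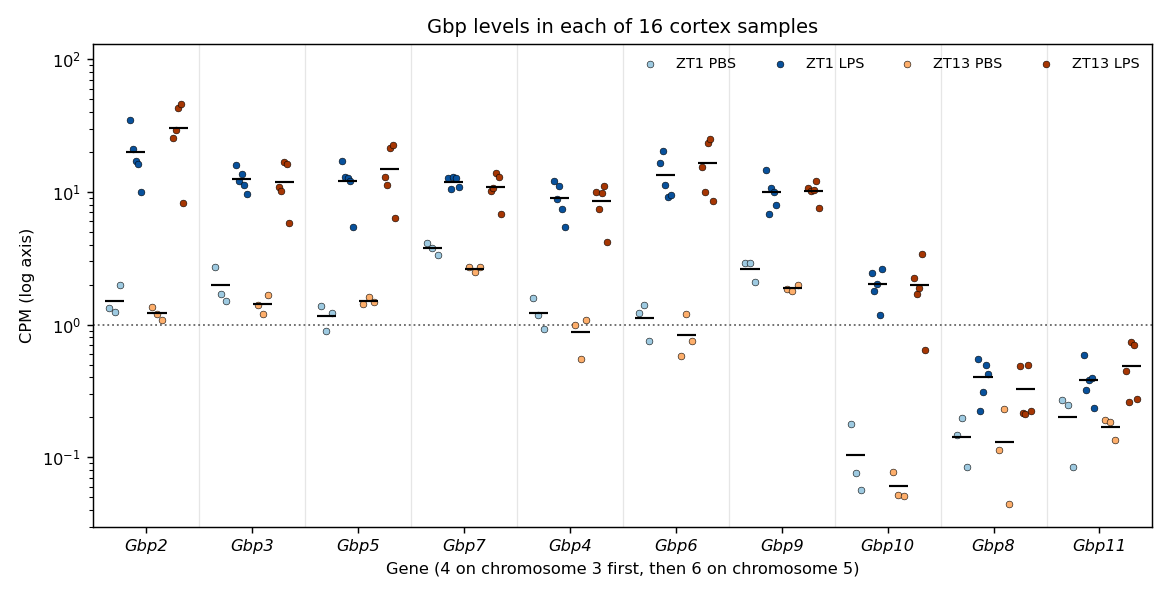
Level of each Gbp gene in CPM (log axis) in every sample, by group, with points for mice, black bars for group means and a dotted line at 1 CPM, the filter for testing. For Gbp2 to Gbp7, Gbp9 and Gbp10, every LPS sample lies above every PBS sample of the same time, while Gbp8 and Gbp11 stay under 1 CPM in all 16 samples.

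The first comparison asked how the family responded to LPS at each TOD. Genes were tested when they reached 1 CPM in at least 3 of the 16 samples, which left 18859 genes. Gbp8 and Gbp11 did not reach it in any sample, and Gbp10 reached it in 9 LPS samples and no PBS sample, so that its passing the filter itself required a difference. Log2 fold changes below are on the log2(CPM + 0.5) scale, with the standard error (SE) and the adjusted p of limma (Benjamini-Hochberg over all genes tested), and a gene is called at an adjusted p under 0.05. At ZT1, 8 of the 10 members were called higher in LPS and 0 lower, with log2 fold changes between 1.55 and 3.24, where 11.1% of all genes tested were called higher and 5.15% lower. At ZT13 the counts were again 8 and 0, with log2 fold changes between 1.82 and 3.97, where 19.2% of all genes were called higher and 9.40% lower. The median log2 fold change over all genes tested was 0.04 at ZT1 and 0.05 at ZT13. LPS and PBS samples did not overlap for 9 of the 10 members at each time, with LPS higher, the exceptions being Gbp11 at ZT1 and Gbp8 at ZT13, and this held for 15.9% of all genes tested at ZT1 and 20.9% at ZT13. The exact permutation test on 3 against 5 mice gives at best p = 0.0357, and each of these 9 members reached that value.

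Gbp2, a member that carries a lipid anchor and moves early to bacterial and vacuolar membranes, gave the largest log2 fold change among the tested members at both times on the log2(CPM + 0.5) scale, which shrinks the change of the low gene Gbp10. At ZT1 it was at 1.33, 1.23 and 1.98 CPM in the PBS mice and at 34.9, 21.1, 17.2, 16.1 and 10.01 CPM in the LPS mice. At ZT13 it was at 1.37, 1.203 and 1.08 CPM in PBS and at 25.5, 29.3, 43.1, 45.9 and 8.24 CPM in LPS mice. No LPS mouse came near the PBS range, and the lowest LPS mouse was replicate 5 at either time. The log2 fold change was 3.24 (SE 0.30, limma adjusted p = 3.38e-05) at ZT1 and 3.97 (SE 0.40, limma adjusted p = 4.62e-06) at ZT13.

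Gbp5, like Gbp2 a lipid-anchored member and linked in earlier work to the NLRP3 inflammasome, started from a similar level in CPM. Divided by exonic length, the PBS level of Gbp5 lay below that of Gbp2, as given further down. The PBS values of Gbp5 were 1.38, 0.889 and 1.22 CPM at ZT1 and 1.44, 1.62 and 1.48 CPM at ZT13. Its LPS values were 17.1, 13.03, 12.7, 12.04 and 5.44 CPM at ZT1 and 12.9, 11.3, 21.4, 22.5 and 6.403 CPM at ZT13. The groups were apart at both times, with replicate 5 again the lowest LPS mouse at each. The log2 fold changes were 2.84 (SE 0.28, limma adjusted p = 5.30e-05) at ZT1 and 2.80 (SE 0.30, limma adjusted p = 8.32e-06) at ZT13.

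Gbp3 was at 2.71, 1.70 and 1.52 CPM in ZT1 PBS and at 16.03, 12.1, 13.6, 11.3 and 9.68 CPM in ZT1 LPS mice. At ZT13 it was at 1.40, 1.203 and 1.66 CPM in PBS and at 10.8, 10.1, 16.9, 16.1 and 5.80 CPM in LPS mice. The groups did not overlap, and Gbp3 rose with log2 fold changes of 2.41 (SE 0.18, limma adjusted p = 6.49e-06) at ZT1 and 2.61 (SE 0.26, limma adjusted p = 4.01e-06) at ZT13. Among the members, its profile over the 16 samples lay nearest to the mean profile of the tested members.

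Gbp7, which acts in the killing of mycobacteria and Listeria within macrophages, had the highest mean PBS level in CPM and, among the 8 tested members, the smallest log2 fold change. It was at 4.14, 3.78 and 3.37 CPM in ZT1 PBS and at 12.7, 10.4, 13.003, 12.8 and 10.9 CPM in ZT1 LPS mice. At ZT13 it was at 2.70, 2.50 and 2.73 CPM in PBS and at 10.1, 10.7, 13.8, 13.04 and 6.83 CPM in LPS mice. The groups were apart, and the 5 LPS mice at ZT1 lay within 1.25 times of each other, against 3.48 times for Gbp2. The log2 fold changes of Gbp7 were 1.55 (SE 0.11, limma adjusted p = 4.09e-06) at ZT1 and 1.82 (SE 0.17, limma adjusted p = 3.02e-06) at ZT13.

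On chromosome 5, Gbp6 and Gbp10 belong to the members that limit intracellular bacteria in macrophages. Gbp6 was at 1.22, 1.40 and 0.755 CPM in ZT1 PBS and at 16.5, 20.3, 11.3, 9.16 and 9.49 CPM in ZT1 LPS mice. At ZT13 it was at 0.575, 1.197 and 0.755 CPM in PBS and at 15.4, 9.97, 23.4, 25.0 and 8.58 CPM in LPS mice. Every LPS mouse was above every PBS mouse, with log2 fold changes of 3.04 (SE 0.25, limma adjusted p = 1.34e-05) and 3.56 (SE 0.30, limma adjusted p = 8.56e-07). Gbp10 was at 0.0511 to 0.179 CPM in the 6 PBS mice, at most 3.64 estimated reads in a library. Its LPS values were 2.46, 1.79, 2.04, 1.18 and 2.64 CPM at ZT1 and 2.24, 1.71, 1.88, 3.38 and 0.641 CPM at ZT13. At so low a PBS level its log2 fold change depends on the pseudocount. It was 2.03 (SE 0.21, limma adjusted p = 8.74e-05) at ZT1 and 2.04 (SE 0.30, limma adjusted p = 1.46e-04) at ZT13 with a pseudocount of 0.5, but 3.37 and 3.53 with 0.1. Summed with Gm43302, Gbp6 and Gbp10 came to 1.26 to 1.56 CPM in PBS and 12.1 to 22.1 CPM in LPS mice at ZT1, and to 0.806 to 1.25 and 9.22 to 32.6 CPM at ZT13. The sum was 11.9 and 20.9 times as high in LPS as in PBS by the group means. This rise of the sum does not depend on how reads were divided among the 3 gene models. It cannot show that Gbp6 or Gbp10 rose as a single gene. Gbp6 as listed was the larger part, with a mean of 13.4 of 17.0 CPM in ZT1 LPS mice.

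Gbp4 was at 1.58, 1.19 and 0.926 CPM in ZT1 PBS and at 12.1, 8.82, 11.2, 7.49 and 5.47 CPM in ZT1 LPS mice. At ZT13 it was at 0.987, 0.555 and 1.08 CPM in PBS and at 9.97, 7.45, 9.77, 11.1 and 4.21 CPM in LPS mice. The groups did not overlap, and Gbp4 rose with log2 fold changes of 2.43 (SE 0.23, limma adjusted p = 3.67e-05) and 2.67 (SE 0.25, limma adjusted p = 2.37e-06). Gbp9 was at 2.91, 2.91 and 2.11 CPM in ZT1 PBS and at 14.5, 6.85, 10.8, 9.94 and 8.02 CPM in ZT1 LPS mice. At ZT13 Gbp9 was at 1.86, 1.80 and 1.97 CPM in PBS and at 10.7, 10.2, 10.4, 12.1 and 7.52 CPM in LPS mice. It too was higher in every LPS mouse, with log2 fold changes of 1.71 (SE 0.20, limma adjusted p = 2.09e-04) and 2.15 (SE 0.13, limma adjusted p = 3.47e-08), and among the tested members its change at ZT1 was the next smallest after Gbp7.

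Gbp8 and Gbp11 were close to the limit of detection. Gbp8 was at 0.148, 0.198 and 0.0842 CPM in ZT1 PBS and at 0.548, 0.224, 0.309, 0.497 and 0.422 CPM in ZT1 LPS mice, and these groups were apart. At ZT13 the PBS range of Gbp8, 0.0448 to 0.231 CPM, overlapped the LPS range, 0.214 to 0.496 CPM. Gbp11, the annotated pseudogene, was at 0.0842 to 0.269 CPM in ZT1 PBS and 0.234 to 0.593 CPM in ZT1 LPS mice, which overlapped. Its ZT13 ranges, 0.134 to 0.1898 and 0.261 to 0.743 CPM, were apart. When limma was fitted with no filter on low values, neither was called, with log2 fold changes of 0.48 for Gbp8 (adjusted p = 0.117) and 0.34 for Gbp11 (adjusted p = 0.299) at ZT1, and 0.39 (adjusted p = 0.233) and 0.53 (adjusted p = 0.148) at ZT13. Their counts, at most 18.4 estimated reads in a library, do not allow a firmer statement.

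**Figure D2:**
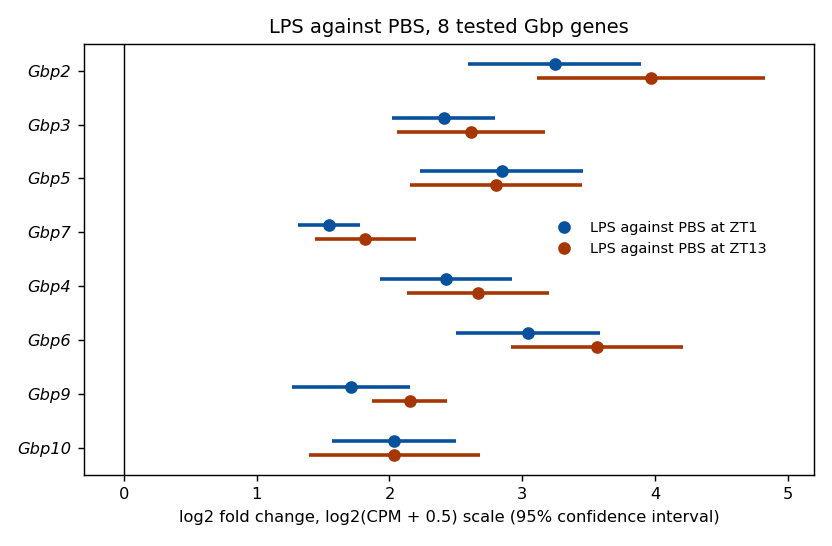
Log2 fold change of LPS against PBS, on the log2(CPM + 0.5) scale, for the 8 tested members at ZT1 (blue) and ZT13 (brown), with points for estimates and lines for 95% confidence intervals. All 16 intervals lie above 0, and the estimates run from 1.55 for Gbp7 at ZT1 to 3.97 for Gbp2 at ZT13.

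Levels of different genes were compared after division by the exonic length of each gene, as CPM per kb. In ZT1 PBS mice the order began with Gbp7 (0.670 ± 0.069, SD, n = 3), Gbp3 (0.605 ± 0.197), Gbp2 (0.602 ± 0.161) and Gbp9 (0.511 ± 0.090), each overlapping the next in range although Gbp9 lay below Gbp7 in every mouse, and all above Gbp6, Gbp5 and Gbp4 at 0.189, 0.175 and 0.164 CPM per kb. The same 4 members came first at ZT13, in the order Gbp2, Gbp7, Gbp3 and Gbp9, each overlapping the next, and all above Gbp5. In LPS mice the order had Gbp2 first, at 7.90 ± 3.69 (SD, n = 5) CPM per kb at ZT1 and 12.1 ± 6.03 at ZT13, followed by Gbp3 at 3.84 ± 0.737 and 3.66 ± 1.41. The group ranges of Gbp2 and Gbp3 overlapped at both times, the lowest Gbp2 mouse being at 3.98 and 3.27 CPM per kb, but within each mouse Gbp2 was above Gbp3 in 10 of 10 LPS mice, by 1.34 to 3.74 times. Gbp6, Gbp7, Gbp9 and Gbp5 followed with means between 1.82 and 2.77 CPM per kb, with no gap between neighbours at either time. Gbp4 at 1.203 and 1.13, Gbp10 at 0.522 and 0.509, Gbp11 at 0.143 and 0.180 and Gbp8 at 0.116 and 0.0951 CPM per kb closed the order.

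Within the family total per length, Gbp2 made up 20.1% on average in ZT1 PBS and 34.8% in ZT1 LPS, and 20.51% and 43.3% at ZT13. Gbp7 made up 21.9% and 10.3% at ZT1, and 19.99% and 7.89% at ZT13. The ratio of Gbp2 to Gbp7 in CPM, taken mouse by mouse, was 0.321 to 0.587 in the 6 PBS mice and 0.919 to 3.52 in the 10 LPS mice. These ranges did not overlap at either time (two-sided exact permutation test, p = 0.0357 at each time, the smallest that 3 against 5 mice can give), and the pair was chosen after its values were seen.

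**Figure D3:**
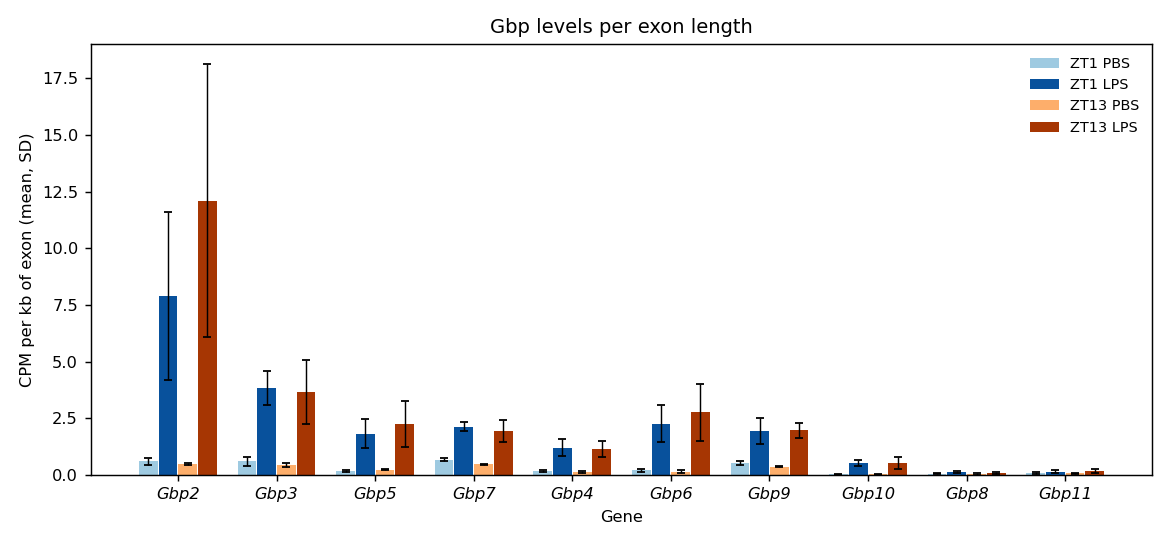
Mean CPM per kb of exon (bars) with SD (lines) for each Gbp gene in the 4 groups, with n = 3 mice in PBS and 5 in LPS groups. Gbp2 reaches 7.90 in ZT1 LPS and 12.1 in ZT13 LPS, with the widest spread, while the 4 leading members are near each other in PBS mice.

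The level of the family differed between mice of the same LPS group. The summed level of the 10 members was 12.1 to 15.9 CPM in ZT1 PBS and 10.5 to 10.98 CPM in ZT13 PBS mice. In ZT1 LPS mice it was 127, 95.03, 92.5, 80.9 and 62.3 CPM for replicates 1 to 5, and in ZT13 LPS mice 98.5, 91.1, 142, 150 and 48.7 CPM. The mouse labelled ZT13 LPS replicate 5 was the lowest of its group for each of the 8 tested members, and replicate 4 the highest for 6 of them. At ZT1 replicate 1 was the highest for 5 members and replicate 5 the lowest for 4, but replicate 5 was the highest for Gbp10, and replicate 2 was the highest for Gbp6 and the lowest for Gbp9. In ZT13 LPS replicate 5, Irf1 (8.81 CPM, against 10.3 to 12.8 in the other 4) and the GTPase gene Igtp (7.21 against 11.2 to 14.4) were also the lowest of the group. So were the astrocyte filament gene Gfap (791 CPM) and the acute-phase gene Lcn2 (278 CPM), although both were far above their PBS levels of at most 123 and 0.197 CPM. The library held 22332574 reads on genes, close to the median of 22459623. Without this mouse the mean family sum at ZT13 was 11.2 times the PBS mean in place of 9.87 times, and the log2 fold change of Gbp2 was 4.37 in place of 3.97.

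**Figure D4:**
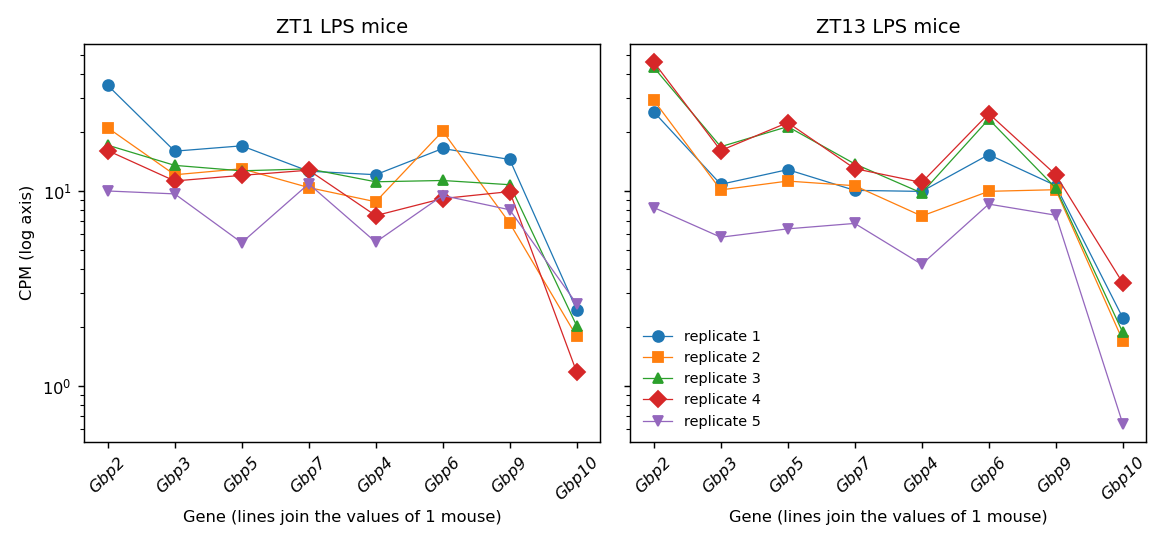
Level of the 8 tested members in CPM (log axis) in each LPS-treated mouse at ZT1 (left) and ZT13 (right), with 1 marker and line per mouse. ZT13 LPS replicate 5 is the lowest of its group for all 8 genes, while at ZT1 the order of the mice differs between genes.

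The second comparison asked whether the level depended on TOD, which here is the time of injection and of harvest alike. In LPS-treated mice, limma called 0 members higher and 0 lower at ZT13 than at ZT1, and 0 of the 8 tested had an unadjusted p under 0.05. Over all genes tested, 0.0106% were called higher and 0.0106% lower and 10.6% had an unadjusted p under 0.05, but the count of calls turned on single mice and on the fit, from 2 higher and 2 lower to 317 and 28 without ZT1 LPS replicate 1. No member was among the calls of any of these fits. Gbp2 gave the largest estimate, with means of 30.4 ± 15.2 CPM (SD, n = 5) at ZT13 and 19.9 ± 9.29 CPM at ZT1 and a log2 difference of 0.51 (95% confidence interval, CI, -0.36 to 1.38, limma adjusted p = 0.741). This estimate turned on single mice, with 0.91 without ZT13 LPS replicate 5, 0.31 and 0.33 without ZT13 LPS replicates 4 and 3, and 0.30 without ZT1 LPS replicate 5, none of them called. The intervals of the other members also included 0, from Gbp7 at -0.16 (CI -0.49 to 0.16) to Gbp5 at 0.25 (CI -0.45 to 0.95), and all 10 members overlapped between the groups. For Gbp9, the estimate was 0.05 with an interval from -0.32 to 0.42. The wider intervals of Gbp2, Gbp5 and Gbp6 reached 1.38, 0.95 and 0.87, so these mice do not show that the levels were alike.

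In PBS-treated mice limma again called 0 members higher and 0 lower at ZT13, where 0.302% of all genes were called higher and 0.217% lower (57 and 41 genes, but 10 and 2 without ZT1 PBS replicate 2). The estimate was below 0 for 7 of the 8 tested members, and 2 of them, Gbp7 and Gbp9, had an unadjusted p under 0.05, where 50.2% of all genes had an estimate below 0 and 13.5% an unadjusted p under 0.05. Gbp7 had a log2 difference of -0.44 (CI -0.73 to -0.15, limma adjusted p = 0.196) and Gbp9 of -0.39 (CI -0.74 to -0.05, limma adjusted p = 0.316). For both, the 3 ZT13 mice were all below the 3 ZT1 mice, as their values above show, a pattern that 9.21% of all genes tested had. Gbp5 went the other way, with all 3 ZT13 mice higher and a log2 difference of 0.29 (CI -0.08 to 0.65, limma adjusted p = 0.4998). The exact permutation test on 3 against 3 mice cannot give a p below 0.10, which is the value for these 3 genes.

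The third comparison asked whether the LPS response itself differed by TOD, as the TOD by treatment interaction over all 16 mice. Limma called 0 members higher and 0 lower, with 0 at an unadjusted p under 0.05, against 0.122% and 0.0371% of all genes called and 9.25% at an unadjusted p under 0.05. Without ZT1 LPS replicate 1 the calls over all genes went from 23 higher and 7 lower to 90 and 14, and without ZT13 PBS replicate 2 to 4 and 3, with 0 members among them. The estimate was above 0, that is, toward a larger response at ZT13, for 7 of the 8 tested members, while 54.0% of all genes had an estimate above 0. Members share mice and were measured in the same libraries, so they are not independent of each other. The largest were Gbp2 at 0.72 (CI -0.49 to 1.94, limma adjusted p = 0.770), Gbp6 at 0.52 (CI -0.42 to 1.45, limma adjusted p = 0.790) and Gbp9 at 0.44 (CI -0.10 to 0.98, limma adjusted p = 0.650). Without ZT13 LPS replicate 5 the estimate for Gbp2 was 1.13, not called. Gbp10 stood at 0.00 (CI -0.83 to 0.84) and Gbp5 at -0.04 (CI -1.02 to 0.94). Intervals of this width include both no difference and a response at ZT13 that is larger by 1 log2 unit for Gbp2, Gbp4 and Gbp6.

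**Figure D5:**
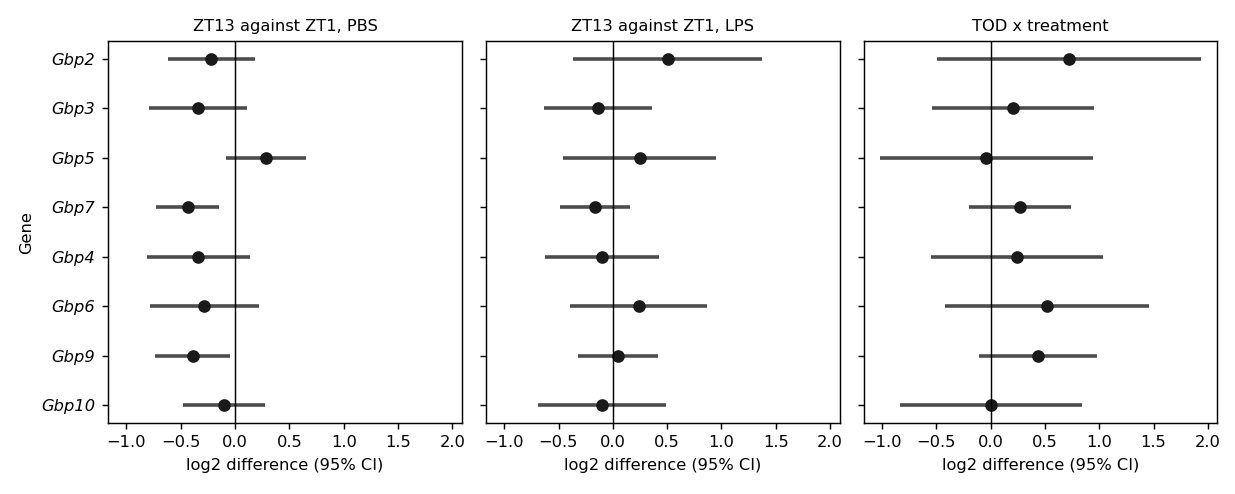
Log2 difference with 95% confidence interval for the 8 tested members: ZT13 against ZT1 in PBS mice (left), ZT13 against ZT1 in LPS mice (middle) and the TOD by treatment interaction (right). Only the intervals of Gbp7 and Gbp9 in PBS mice leave out 0, and neither gene passed the adjusted threshold.

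The genes that lead to and act with the GBPs were read from lists of known pathway members. Among interferon ligands, Ifng, Ifnb1 and Ifna4 were at most 0.084 CPM in any sample, and the interleukin gene Il12b at most 0.047 CPM, too few reads for a comparison. Of the interferon receptor genes, Ifngr1, Ifnar1 and Ifnar2 were called higher in LPS at both times, the largest being Ifngr1, which encodes the ligand-binding chain of the interferon-gamma receptor, with log2 fold changes of 0.69 (SE 0.13, limma adjusted p = 0.00387) at ZT1 and 1.02 (SE 0.08, limma adjusted p = 4.49e-07) at ZT13. Ifngr2, the signalling chain of the same receptor, had 0.11 (limma adjusted p = 0.2503) and 0.09 (limma adjusted p = 0.281).

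Of 17 tested genes of JAK-STAT signalling and the interferon regulatory factors, 11 were called higher at ZT1 and 14 at ZT13, and 0 lower. Over all genes tested, 11.1% were called higher and 5.15% lower at ZT1, and 19.2% and 9.40% at ZT13. Irf7, which drives type I interferon genes, was at 1.68 to 2.81 CPM in ZT1 PBS and 23.1 to 31.7 CPM in ZT1 LPS mice, and at 1.71 to 2.19 and 12.5 to 47.1 CPM at ZT13, with log2 fold changes of 3.40 and 3.42. Nlrc5, the transactivator of MHC class I genes, had 2.35 and 2.93. Socs3, an inhibitor of cytokine signalling, had 1.53 and 2.27. Each of these 3 genes was called at both times, with limma adjusted p between 3.80e-08 and 8.88e-05.

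The immunity-related GTPases (IRGs) and very large inducible GTPases work beside the GBPs at pathogen vacuoles. Of 8 tested, 8 were called higher at ZT1 and 8 at ZT13, with medians of 1.87 and 2.04. Over all genes tested, 11.1% were called higher at ZT1 and 19.2% at ZT13. Iigp1, Tgtp2 and Gm4951 stayed under 1 CPM in every PBS mouse, so their passing the filter itself required a difference. No gene was listed under the names Irgb6, Irgb10 or Ifgga1 to Ifgga4, but other names for them were not searched, so this does not show that they were not measured. Shared sequence was examined only for the Gbp members, so how well reads could be placed among these GTPases is not known. The largest changes at ZT13 were those of Gvin1 (log2 fold change 2.87, SE 0.50), Tgtp1 (2.25, SE 0.25), Igtp (2.18, SE 0.20) and Iigp1 (2.17, SE 0.32). At ZT1 the same 4 genes had 1.67, 1.84, 2.07 and 2.22. Gvin1 varied most among PBS mice, from 0.611 to 5.62 CPM at ZT1.

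GBPs act upstream of caspase-11 and the inflammasomes. Of 12 tested genes of that pathway, 8 were called higher at ZT1 and 11 at ZT13, and 0 lower. Over all genes tested, 11.1% were called higher at ZT1 and 19.2% at ZT13. Casp1, Casp4, Nlrp3, Nlrp1b, Il1b and Mefv stayed under 1 CPM in every PBS mouse. They passed the filter through LPS mice alone, which itself required a difference. Casp4 itself was low, at 0.099 to 0.296 CPM in ZT1 PBS and 0.671 to 1.45 CPM in ZT1 LPS mice, and at 0.038 to 0.093 and 1.12 to 1.55 CPM at ZT13, with log2 fold changes of 1.09 and 1.74. Gsdmd, the pore-forming substrate of caspase-11, went from 1.71 to 4.44 CPM at ZT1 and from 1.69 to 6.55 CPM at ZT13, with 1.14 and 1.70. Il1b, the cytokine released through that pore, had 1.25 and 2.08, and the sensor gene Nlrp3 had 1.34 and 1.46. The ATG8 conjugation machinery takes part in placing GBPs and IRGs on vacuoles. The list read for it held 12 tested genes, among them Sqstm1 and Ubqln2, which are not part of the conjugation machinery. Of these 12 genes, 1 was called higher and 1 lower at ZT1, and 1 higher and 3 lower at ZT13. The shares of all genes given above were 11.1% higher and 5.15% lower at ZT1 and 19.2% and 9.40% at ZT13. The gene called higher at ZT1 was the cargo receptor gene Sqstm1, which is named after its values were seen. Map1lc3a, an ATG8 protein, fell by 0.30 and 0.40 on the log2 scale, while its relative Gabarap had 0.14 (limma adjusted p = 0.151) and 0.21 (limma adjusted p = 0.00423). Atg12 and Ubqln2 were called lower at ZT13, with log2 fold changes of -0.18 and -0.13. Between the times and in the interaction, limma called 0 genes of these 5 lists. With an unadjusted p under 0.05 there were 8 genes in LPS mice, 6 in PBS mice and 8 in the interaction, of 54 tested, where the shares over all genes were 10.6%, 13.5% and 9.25%.

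The 10 genes that are no members and whose profile over the 16 samples was nearest to the mean profile of the tested members, by the root mean square difference of z-scored log2(CPM + 0.5), were Irgm1 (0.107), Tap1 (0.116), Irf7 (0.122), Oasl2 (0.127), Nlrc5 (0.131), H2-Q4 (0.131), Zbp1 (0.133), Ifih1 (0.149), Psmb8 (0.154) and H2-T23 (0.161). Gbp3, itself a member, lay at 0.094 and Gbp4 at 0.123. The other tested members lay farther than all 10 of these genes, from 0.167 for Gbp7 to 0.226 for Gbp10. Each tested member is also part of the mean profile that it is set against. Irgm1 encodes an immunity-related GTPase, Tap1 and Psmb8 serve peptide supply to MHC class I, and Zbp1 and Ifih1 are sensors of nucleic acids. Their LPS levels at ZT13 ran from 4.07 ± 1.63 CPM (SD, n = 5) for Zbp1 to 44.8 ± 16.3 CPM for H2-Q4, and their log2 fold changes from 1.47 for Ifih1 to 4.14 for H2-Q4. These genes were picked for nearness to a mean profile that is higher in LPS mice, so a rise with LPS was built into the choice. Zbp1 had a mean of 0.134 CPM in ZT1 PBS and 0 CPM in ZT13 PBS mice, so its passing the filter itself required a difference. The family and these genes share the same libraries, so nearness is a description of 16 samples.

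A neighbour of the chromosome 3 members went undetected. Gbp2b, known as Gbp1 in the older literature, was listed at 0 CPM in 15 of 16 samples and at 0.0453 CPM in the other, a ZT1 LPS mouse, although its promoter stretch shown above carries the ISRE core. The pseudogene Gbp2-ps was likewise at 0 in 15 of 16 samples.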

How the data were processed

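RNA-seq of total RNA after ribosomal RNA depletion (KAPA RiboErase) was available for 16 cortex samples. The authors deposited 1 table of CPM (reads per 1000000 reads on genes) for each gene and sample. The submitters' processing notes name bcl2fastq, DRAGEN 4.0.3-8 and GRCm38; how reads shared by genes were divided is not given in the sources used here. The table had 55774 lines for 55487 gene identifiers, and the 287 repeated lines held the same values and were dropped. In each sample, only 80.7% to 82.8% of the values that amount to no more than 20 reads came within 0.01 of a whole read, so counts were not recovered and no count model was run.

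Log2(CPM + 0.5) of the 18859 genes at 1 CPM or more in at least 3 samples was fitted with limma 3.58.1 (R 4.3.3; trended prior, two-sided), each pair of groups alone and the interaction over 4 group means. Single values were compared with exact permutation tests (scipy 1.17.1). Members and lists were chosen with earlier results of these data known. Beside the members, up to 4 genes per pathway list with the largest change at ZT13 and the 10 nearest genes were named by rule. One gene that the rule names is not reported here. Gene positions are from GENCODE M21, promoters from RefSeq (GRCm38.p6; 4 of 10 members matched). The scripts were tested on simulated data. The study's methods describe the mice as littermates from 1 supplier, but samples are not tied to litters or cages, so p-values measure only the spread between these mice. The column of ZT13 PBS replicate 1 carries another suffix than the rest, whose meaning is not given in the sources used here. Intervals and read floors cover counting error or spread between mice only.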

Additional observations from a re-analysis of the deposited data

How the results depend on the processing

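For LPS against PBS, 8 members were called at each time with pseudocounts of 0.1 and 1, with sample quality weights, under median-of-ratios or quantile scaling, with the 4 groups in 1 model, without the intensity trend and without any 1 mouse, as were 7 of the 7 left by a filter at 5 CPM and 8 of 10 without a filter, with single-member adjusted p up to 0.0142 at ZT1 and 0.0131 at ZT13. The comparisons between times and the interaction had 0 called throughout. With the replicate number as a block, the counts were 8, 8, 0, 0 and 0. Whether the numbers pair the mice is not known, and residual correlations cannot settle it. Of 20 same-numbered pairs, 3 had a residual correlation over 0.1 (range -0.20 to 0.33). The highest was that of ZT1 LPS replicate 5 with ZT13 LPS replicate 5. Over all genes, the split of higher and lower calls moved from 2089 and 972 to 1656 and 1390 at ZT1 and from 3629 and 1772 to 2842 and 2831 at ZT13 with median-of-ratios scaling, and to 1493 and 1426 and to 2540 and 3106 with quantile normalization, which also took the median of all genes at ZT13 from 0.05 to -0.06; every member called remained higher. Without ZT1 PBS replicate 1, 2 or 3, the higher calls over all genes at ZT1 were 1299, 1355 and 1297.

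Small estimates between times changed sign, none of them called, and the cause was not tested. In LPS mice, Gbp9 came to -0.0017 with quantile normalization and Gbp10 to 0.046 with quality weights. For the summed CPM of the chromosome 5 members, an alternative chosen after seeing the data, the log2 difference was 0.066. In the interaction, Gbp5 came to 0.015 with a pseudocount of 1 and 0.017 with quality weights, and Gbp10 to -0.013 with a pseudocount of 1, -0.0042 with median-of-ratios scaling and -0.15 with quantile normalization. Leaving out 1 mouse at a time gave, in LPS mice, -0.28 to 0.088 for Gbp3, -0.25 to 0.12 for Gbp4, -0.0039 to 0.50 for Gbp5, -0.070 to 0.19 for Gbp9 and -0.29 to 0.15 for Gbp10, and in the interaction -0.29 to 0.22 for Gbp5 and -0.19 to 0.26 for Gbp10. Depth limits Gbp8 and Gbp11, and shared sequence limits Gbp6 and Gbp10 as single genes.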
